A study of Drosophila melanogaster with 36 samples.

Results

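The 60 genes described here have a CG number as their symbol, the serial identifier given to a gene predicted from the Drosophila genome. Their signal was lower in embryos at 8 h than at 5 h in each of 9 isogenic lines. They were chosen on measured values. Of 5209 genes with a CG number as symbol, among 11982 genes and 18769 probe sets on the array, 120 had a lower signal at 8 h in all 9 lines, and the 60 with the most negative mean difference were taken. The difference between times is therefore what selected them, and it is given below as a description, with nothing supported by tests on it. The tests read below concern differences among lines.

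Embryos of Drosophila melanogaster were sampled at 5 h and at 8 h from 9 isogenic lines, which are fly stocks bred to carry nearly the same genome in every animal, and total RNA was hybridised to 1-colour Affymetrix arrays. Each time has 18 arrays, made from 2 RNA samples per line. The array titles give the lines as Drosophila_17, Drosophila_23, Drosophila_58, Drosophila_75, Drosophila_83, Drosophila_89, Drosophila_128, Drosophila_134 and Drosophila_145. For 1 array at 5 h the title gives no line, so that 35 arrays entered the comparisons and line Drosophila_17 had 1 array at 5 h. The labels give no treatment, age window or sex, and do not say whether a line's RNA samples stem from separate embryo collections. The p-values for lines below therefore rest on the spread between arrays of the same line and time, which may be technical. Those for the difference between times rest on how that difference varied among the lines. An array of whole embryos cannot tell fewer cells expressing a gene from less RNA per cell.

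In the fly, the first hours of development run on mRNAs that the mother placed in the egg. These mRNAs are then degraded while the embryo's own genome is switched on, and a first set of zygotic genes is transcribed briefly around cellularisation, when membranes enclose the nuclei. A signal that is lower at the later time can therefore belong to a transcript of either origin, and the arrays alone do not separate these origins.

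Before quantile normalisation, the arrays' summed intensities lay between 68984 and 309710 at 5 h, with 46261 to 266525 at 8 h. The limit of detection on each array was the 99th percentile of 49 probe sets taken as negative controls from their names alone, and between 3152 and 8128 probe sets lay above it. All 10 of the 10 embryonic marker genes found on the array lay above the limit on at least 9 of 18 arrays at 1 time or the other, as did 4 of 5 late embryonic markers. So did 1 of 10 egg chamber markers, the chorion gene Cp15, and 0 of 5 adult head and gut markers and 0 of 5 testis markers, and the yolk gene Yp1 was above it on 0 arrays. The summed signal of the egg chamber list lay between 5.55 and 19.1 at 5 h, with 6.05 to 17.7 at 8 h, and the part of such RNA in the results was not tested.

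Intensities are quantile normalised, and a line's value is the mean of its arrays. Differences are 8 h minus 5 h on the scale of log2(intensity + 16), which understates the change of dim genes. The 60 differences ran from -2.0 for CG34214 to -0.21, with a median of -0.39, while the median over all probe sets was 0.00. At 5 h the mean intensity over lines lay between 5.93 and 74.0 with a median of 15.8, and at 8 h between 0.753 and 37.5 with a median of 8.18. The ratio of the mean at 5 h to the mean at 8 h ran from 1.34 to 34.8, with a median of 1.76. For most of the genes the signal was thus reduced but not lost, and 2, CG34214 and CG14014, had a difference of at least 1 in size and 13 of at least 0.5. In limma's moderated test with lines as a block, all 60 were called lower at 8 h, against 3.67% of all probe sets (688 falling) and 3.85% called higher. That contrast chose the genes, so nothing is read from the count.

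**Figure D1:**
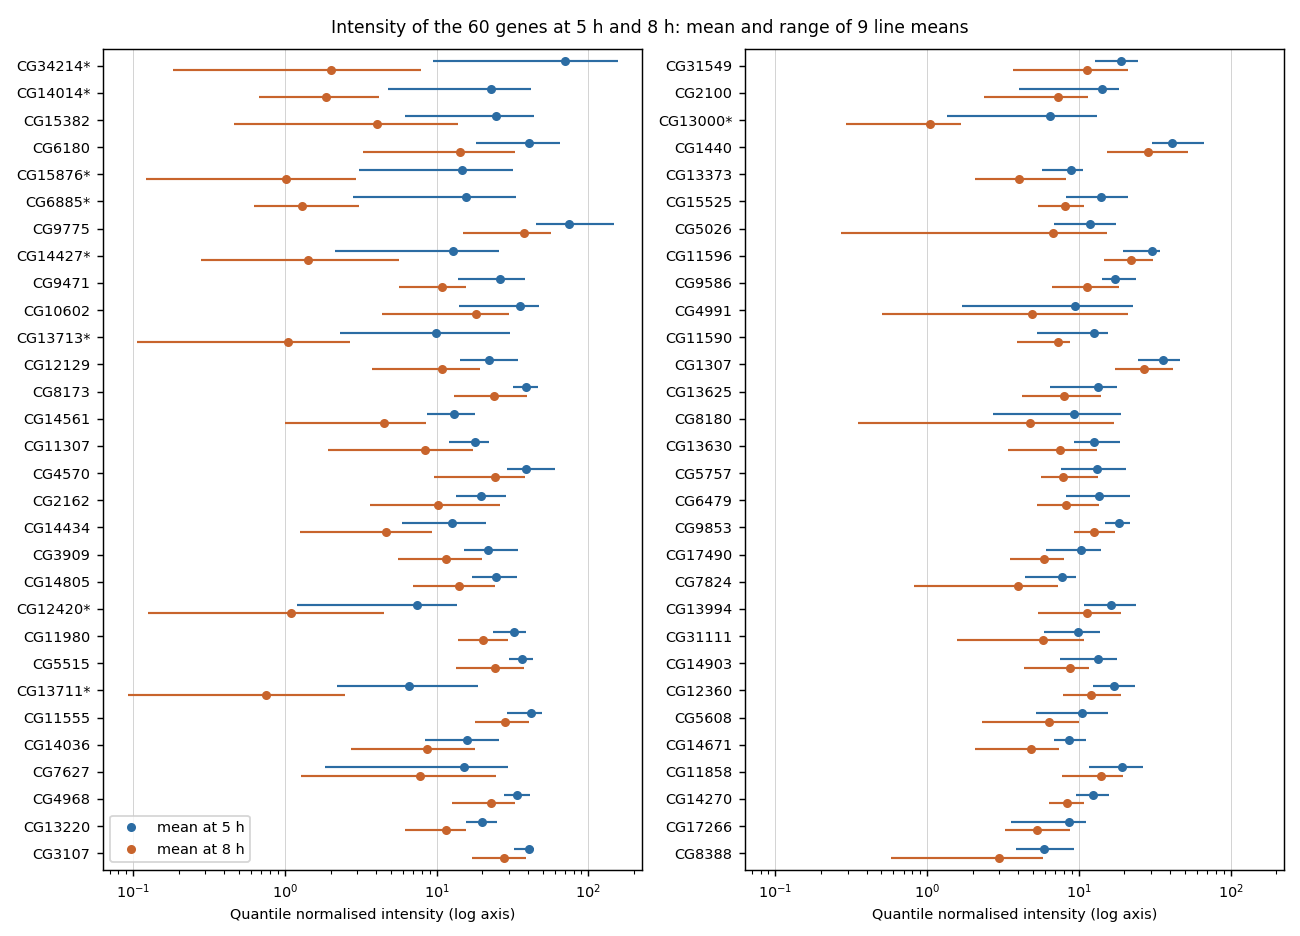
Mean intensity of each gene over 9 lines at 5 h (blue) and 8 h (orange), with lines spanning the lowest to the highest line mean, on a log axis of quantile normalised intensity. Genes are ordered by their mean difference, from CG34214 to CG8388, and those with an asterisk lay above the limit on at most 5 of 18 arrays at 8 h. The asterisked genes have means of 0.753 to 2.02 at 8 h, and the others keep means of 2.97 or more.

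Few of the genes separated the times completely. The line means at 5 h all lay above those at 8 h for 4 of the 60, which were CG34214, CG14014, CG15876 and CG13220, against 0.112% of all probe sets. The count was 9 without line Drosophila_75, 7 without line Drosophila_17 and 14 without lines Drosophila_75 and Drosophila_89, where 0.298%, 0.170% and 0.485% of all probe sets did not overlap. With all lines, for the remaining 56 the highest lines at 8 h reached into the range of the lowest lines at 5 h. Among the 4, the gap was narrow for CG13220, at 15.53 against 15.51, both in line Drosophila_128. It was narrow for CG15876 too, at 3.07 against 2.96. The requirement of a lower signal in every line also left out genes with a larger mean difference. Of the 60 CG-number genes with the most negative means, 34 were lower in 9 lines, 20 in 8 and 6 in 7. The 26 that missed did so in line Drosophila_17 for 9 genes, in line Drosophila_89 for 8 and in line Drosophila_75 for 6. Line Drosophila_17 has 1 array at 5 h. Of the 26, 0 missed in lines Drosophila_58, Drosophila_83 and Drosophila_134. CG13427 is the largest of these, with a mean difference of -1.28 and a signal 0.80 higher at 8 h in line Drosophila_89, and CG14915 follows with -0.90 and no fall in line Drosophila_17.

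The edge of the set is not a gap. The 3 members with the smallest differences were CG14270 at -0.2191, CG17266 at -0.2109 and CG8388 at -0.2099, and the 3 eligible genes just outside were CG8461 at -0.2092, CG7943 at -0.2081 and CG3860 at -0.2062. The label "uncharacterised" holds for the symbols, but RefSeq lists other names for some members. CG9471 is also listed as BVR, for biliverdin reductase, the enzyme that turns biliverdin into bilirubin. CG3909 is listed as Ski8, in yeast a subunit of the Ski complex, which feeds mRNA to the exosome for decay. CG4968 is listed as OTUB1, in human cells a deubiquitinase, CG13630 as the methionine aminopeptidase MAP1A, CG9853 as Get4, in yeast a factor for inserting tail-anchored proteins into membranes, and CG5608 as Vac14, in yeast a scaffold for making a phosphoinositide of the vacuole. Of the 60 genes 59 were found in the RefSeq table, and CG12360 was not.

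CG34214 had the largest difference, and it stood at rank 5 of 11982 genes for the size of its fall. Its line means at 5 h ran from 9.43 in line Drosophila_89 through a median of 61.6 to 156 in line Drosophila_134, and at 8 h from 0.183 through 0.547 to 7.86 in line Drosophila_23. The groups did not overlap, and the lowest line at 5 h lay close to the highest line at 8 h. The difference was -2.0 ± 0.21 (SE, n = 9 lines), from -3.38 in line Drosophila_134 to -0.37 in line Drosophila_89, and the mean went from 70.3 ± 49.6 to 2.02 ± 2.64 (SD, n = 9).

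CG14014 was second among the members, at rank 12 of all genes. It ran from 4.82 in line Drosophila_75 through 15.1 to 41.8 in line Drosophila_134 at 5 h and from 0.672 through 1.51 to 4.17 at 8 h. All lines at 5 h lay above all lines at 8 h, with 4 lines (Drosophila_17, Drosophila_23, Drosophila_134 and Drosophila_145) at 35.2 or more and the other 5 at 15.1 or less. Its difference was -1.01 ± 0.13 (SE, n = 9).

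CG15382 ran from 6.17 in line Drosophila_75 through 22.2 to 44.1 in line Drosophila_17 at 5 h, and from 0.463 through 2.09 to 13.9 in line Drosophila_145 at 8 h. Its ranges overlapped, because line Drosophila_145 at 8 h was above lines Drosophila_75, Drosophila_89 and Drosophila_128 at 5 h, and its difference was -0.94 ± 0.11 (SE, n = 9). CG6180 ran from 18.2 in line Drosophila_128 through 37.2 to 65.2 in line Drosophila_89 at 5 h and from 3.29 in line Drosophila_134 through 11.7 to 32.8 in line Drosophila_89 at 8 h, a difference of -0.92 ± 0.11 (SE, n = 9). Line Drosophila_89 was the highest at both times. At 8 h it was level with line Drosophila_134 at 5 h and above lines Drosophila_75 and Drosophila_128 at 5 h. Lines Drosophila_17 and Drosophila_83 at 8 h were also above lines Drosophila_75 and Drosophila_128 at 5 h.

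CG15876 ran from 3.07 in line Drosophila_58 through 15.4 to 31.9 in line Drosophila_134 at 5 h and from 0.121 through 0.784 to 2.96 at 8 h, with no overlap and a difference of -0.79 ± 0.10 (SE, n = 9). CG6885 ran from 2.81 in line Drosophila_89 through 12.3 to 33.6 in line Drosophila_134 at 5 h and from 0.628 through 0.964 to 3.09 at 8 h, a difference of -0.77 ± 0.12 (SE, n = 9). Here lines Drosophila_58, Drosophila_75 and Drosophila_89 at 5 h were level with the highest line at 8 h, and the other 6 lines were well above it.

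The next 6 by size were CG9775 at -0.72, CG14427 at -0.66, CG9471 (BVR) at -0.65, CG10602 at -0.61, CG13713 at -0.55 and CG12129 at -0.52, at ranks 35 to 84 of all genes. CG9775 had a mean intensity of 74.0 ± 31.5 at 5 h and 37.5 ± 12.8 at 8 h (SD, n = 9), CG11555 went from 41.8 to 28.3, and CG1440 was at 28.6 at 8 h. Intensities of different probe sets depend on the probes and do not order the genes by expression.

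Lines were compared with limma's moderated F test on a mean per line and time. Over all 60 genes, 44 were called over both times at an adjusted p of 0.05, against 19.5% of all probe sets and 51.4% of measured ones, which lay above the limit on at least 18 of 36 arrays. At 5 h 21 were called, against 7.45% and 21.1%, and at 8 h 32, against 18.4% and 44.2%. Since 59 of the 60 are measured, the share among measured probe sets is the nearer comparison. A gene can count as measured largely through its arrays at 5 h. At 8 h the calls were 0 of 9 genes near the limit at that time and 32 of the other 51, as described below. There were 10 genes called at 5 h and not at 8 h, 21 at 8 h and not at 5 h, 11 at both times and 18 at neither. Whether a gene called at 1 time differed in its line effect between times was not tested. With lines Drosophila_75 and Drosophila_89 left out, 28 of the 60 were called over both times, 13 at 5 h and 18 at 8 h. Of all probe sets 11.1%, 2.50% and 12.2% were called in the same fits. The shares among measured probe sets were not counted there.

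The genes differed in where their signal ended. A set of 9 was above the limit on 1 to 5 of 18 arrays at 8 h, and the next member was above it on 8. This division was made after the values were seen and has no test of its own. The 9 are CG34214, CG14014, CG15876, CG6885, CG14427, CG13713, CG12420, CG13711 and CG13000. At 5 h they were above the limit on 14 to 18 arrays. Their ratio of means ran from 6.18 to 34.8 with a median of 9.46, and since the later signal is at or near the limit, the size of each ratio is uncertain. For the other 51 the ratio ran from 1.34 to 6.04 with a median of 1.71, and 17 of them were above the limit on all 18 arrays at 8 h.

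**Figure D2:**
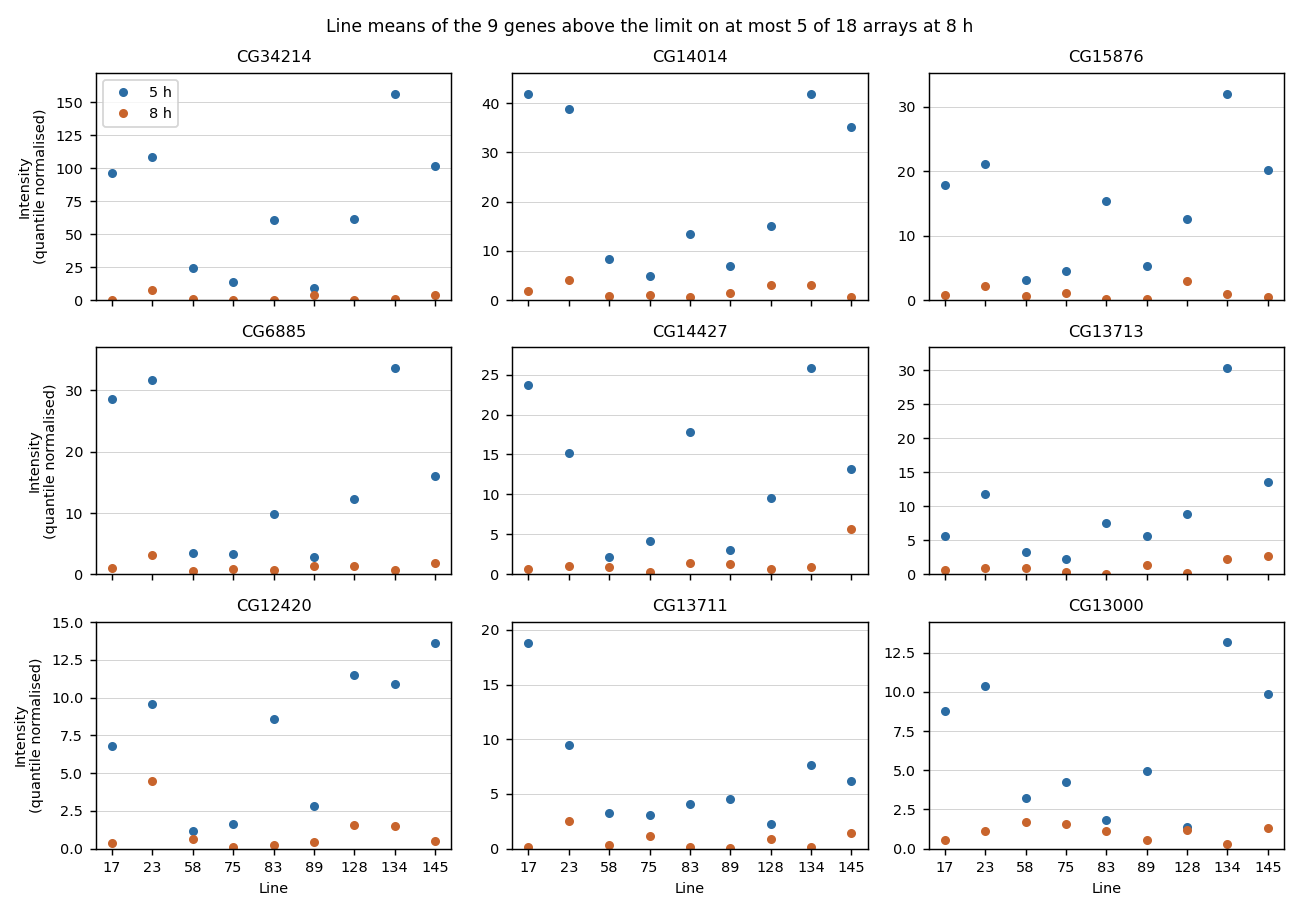
Line means of quantile normalised intensity at 5 h (blue) and 8 h (orange) for the 9 genes that were above the limit on at most 5 of 18 arrays at 8 h, with the 9 lines on the x axis. At 5 h lines Drosophila_58, Drosophila_75 and Drosophila_89 are low in most panels and line Drosophila_134 is the highest in 7 of 9, while all values at 8 h are 7.86 or less.

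All 9 of these genes were called for lines at 5 h in limma's moderated F test, adjusted over all probe sets. Of all probe sets 7.45% were called at 5 h, and of measured ones 21.1%. CG34214 had adjusted p = 8.9e-13, CG14014 8.4e-11 and CG6885 7.9e-10, and CG13711 had the weakest, with adjusted p = 0.00047. The same 9 were called at 5 h with every scaling, both other pseudocounts, array brightness as a covariate, lines Drosophila_75 and Drosophila_89 left out, and each array left out in turn. The share of all probe sets called ran from 2.50% without those lines to 23.5% on the deposited scale, single arrays left out aside. With the test limited to measured probe sets, 8 were called, since 1 of the 9 is not measured, against 28.5% of those tested. At 8 h limma called 0 of the 9 for lines, 0 had an unadjusted p under 0.05, and 1 was called with a pseudocount of 4. A low signal at 8 h is what defines the set, so this is a property of how it was drawn.

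Line Drosophila_134 was the highest at 5 h for 7 of these genes, and lines Drosophila_17 and Drosophila_145 for 1 each. The lowest line was Drosophila_58 for 3 genes and Drosophila_75, Drosophila_89 or Drosophila_128 for 2 genes each. The median level at 5 h on the log2 scale was 5.53 in line Drosophila_134, 5.12 in line Drosophila_17, 4.96 in line Drosophila_23 and 4.89 in line Drosophila_145. It was 4.78 in line Drosophila_128, 4.69 in line Drosophila_83, 4.38 in line Drosophila_89, 4.33 in line Drosophila_75 and 4.27 in line Drosophila_58, while at 8 h every line lay between 4.04 and 4.20. At 8 h the signal was too near the limit to order the lines.

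A list of early zygotic and cellularisation genes was set beside them. The genes were listed for their known roles, though with earlier results of these data known. Of the 28 genes of this list 24 were tested and 16 fell, against 3.67% of all probe sets. The Notch target E(spl)m5-HLH was the 1 gene that rose, against 3.85% of all probe sets, and the median difference was -0.44. The 3 with the largest differences were the mitotic inhibitor Z600 at -2.44, the membrane-growth gene slam at -2.22 and SNCF at -2.15. Its median level at 5 h was highest in line Drosophila_134 at 5.37 and in line Drosophila_145 at 5.10, and lowest in lines Drosophila_75 and Drosophila_89 at 4.39 each and in line Drosophila_58 at 4.64. Whether the lists order the lines alike was not tested. For transcripts of maternal origin the median of 12 at 5 h was highest in line Drosophila_89 at 5.98 and line Drosophila_75 at 5.86 and lowest in line Drosophila_134 at 4.76. In that list 6 fell, among them gnu, dhd and osk, 1 (stau) rose and the median difference was -0.27. Of 12 genes of maternal clearance 4 fell (me31B, gnu, plu and exu) and 0 rose, with a median of -0.14, and of 5 activators of the zygotic genome 0 fell and 0 rose in limma's test, with a median of 0.08.

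**Figure D3:**
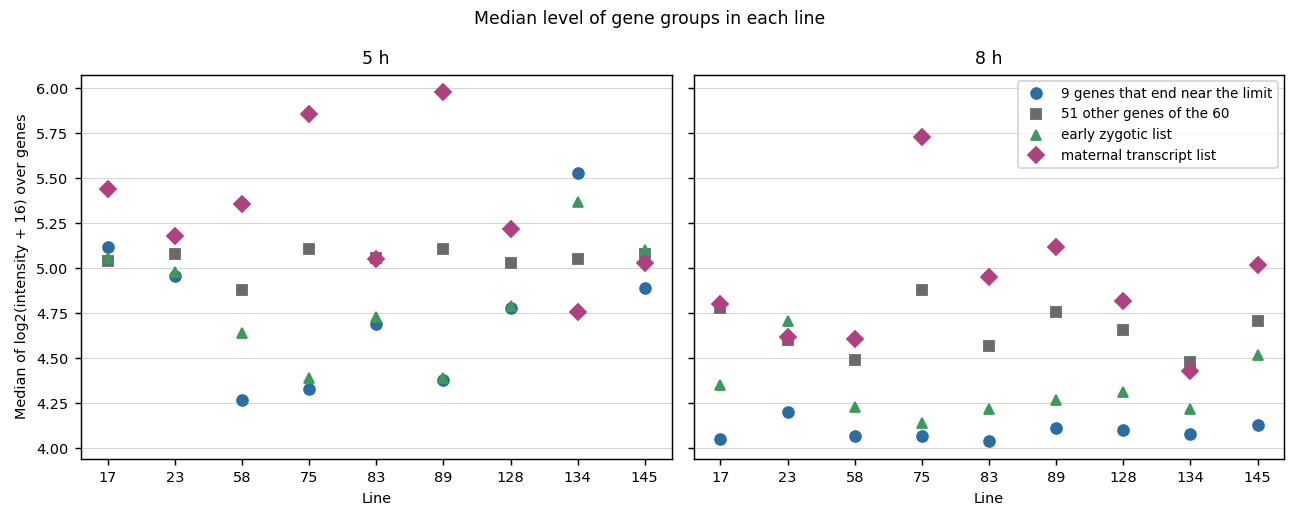
Median of log2(intensity + 16) over genes in each of 9 lines at 5 h (left) and 8 h (right), for the 9 genes that end near the limit, the 51 other genes, the early zygotic list and the maternal transcript list. At 5 h the circles and triangles are lowest in lines Drosophila_58, Drosophila_75 and Drosophila_89 and highest in line Drosophila_134, the diamonds are highest in lines Drosophila_75 and Drosophila_89, and the squares stay between 4.88 and 5.11.

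Array brightness also differed between these lines. Total intensity at 5 h was 102204 to 110030 on the arrays of line Drosophila_134, against 217807 to 257381 for line Drosophila_75, 261232 to 309710 for line Drosophila_89 and 189805 to 234801 for line Drosophila_58. The arrays of line Drosophila_145 had 68984 and 112408. With brightness as a covariate the 9 calls at 5 h were kept, as stated above. That fit keeps a mean per line and time, so it cannot remove brightness that differs between lines. The part of brightness in these line differences was not tested. Whether the lines were at the same stage when sampled was not tested.

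RefSeq lists 3 of these 9 genes under a shared series of names, CG13713 as HL2, CG15876 as HL3 and CG13711 as HL5. The series was looked up after the values were seen. CG15876 and CG13713 lie next to each other in the RefSeq gene order, the only adjacent pair among 59 placed members, and HL1 to HL5 lie within a run of 18 genes, 12 of them protein-coding. The 2 other genes of that run with an HL name had lower means at 8 h too, without passing the test. Both were dim at either time. CG13716 exceeded the limit of detection in 9 arrays from 5 h and 2 from 8 h, and CG13712 in 5 and 0. Their lower means are therefore differences between signals at or near that limit, and whether these genes fell with the others is not shown. CG13716 (HL1) went from 2.28 ± 1.59 to 0.971 ± 0.460 (SD, n = 9) and was lower in 6 of 9 lines, with limma adjusted p = 0.15. CG13712 (HL4) went from 1.44 ± 0.874 to 0.550 ± 0.441 (SD, n = 9) and was lower in 8 of 9 lines, with limma adjusted p = 0.13. HL6 is a synonym of SNCF, which fell from 152 ± 114 to 20.5 ± 21.7 (SD, n = 9; -2.15 ± 0.25, limma adjusted p = 2e-05).

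CG13713 ran from 2.33 in line Drosophila_75 through 7.61 to 30.3 in line Drosophila_134 at 5 h, and from 0.106 through 0.895 to 2.70 at 8 h. CG13711 ran from 2.20 in line Drosophila_128 through 4.52 to 18.8 in line Drosophila_17 at 5 h, and from 0.0921 through 0.326 to 2.48 at 8 h. Line Drosophila_134 stood well above all others for CG13713, the next being line Drosophila_145 at 13.6. For CG13711 line Drosophila_17, which has 1 array at 5 h, did so, the next being line Drosophila_23.

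CG14427 lies next to nullo, a gene needed for cellularisation, which differed by -0.29 between times (limma adjusted p = 0.0018). CG14427 itself ran from 2.14 in line Drosophila_58 through 13.2 to 25.8 in line Drosophila_134 at 5 h and from 0.279 through 0.979 to 5.67 in line Drosophila_145 at 8 h. Of 90 neighbouring genes with a probe set, 10 fell, against 3.67% of all probe sets, but CG15876 and CG13713 are members themselves and are 2 of these 10. There were 3 that rose (aop, raskol and Oscillin), against 3.85% of all probe sets, and the median difference was -0.03. The list of neighbours gets no test of its own. Outside the members, the proteasome gene Prosbeta3 beside CG11980 at -0.73 and the repressor gene aop beside CG15382 at 0.79 were the largest of the called neighbours in each direction.

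For the 51 other genes the median level at 5 h lay between 4.88 in line Drosophila_58 and 5.11 in lines Drosophila_75 and Drosophila_89, and at 8 h between 4.48 in line Drosophila_134 and 4.88 in line Drosophila_75. At 5 h 12 of them were called for lines, against 21.1% of measured probe sets, and at 8 h 32, against 44.2%. The count at 5 h is near the background. At 8 h line Drosophila_75 was the highest for 20 of the 51 and line Drosophila_134 the lowest for 19. The extremes at 8 h were thus line Drosophila_75, whose arrays at 8 h had totals of 212329 and 266525, the brightest at that time, and line Drosophila_134, whose arrays had 46261 and 74632. With lines Drosophila_75 and Drosophila_89 left out, 18 of the 51 were called at 8 h and 4 at 5 h, in a fit with fewer arrays that called 12.2% and 2.50% of all probe sets. With array brightness as a covariate 28 and 7 were called, against 15.1% and 2.53% of all probe sets. For these fits the share among measured probe sets, the nearer comparison, was not counted, so no excess is read from them.

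The size of the fall also varied by line. The median difference of the 60 was -0.64 in line Drosophila_134, -0.48 in lines Drosophila_23 and Drosophila_83, and -0.36 in line Drosophila_58. It was -0.33 in line Drosophila_145, -0.30 in line Drosophila_89, -0.29 in line Drosophila_17, -0.25 in line Drosophila_128 and -0.15 in line Drosophila_75. Line Drosophila_134 had the largest fall for 30 of the 60 genes and line Drosophila_75 the smallest for 24. These lines were also at the ends of the brightness range at 8 h, and brightness and the size of the fall both varied among the other lines. Line Drosophila_128 had totals of 56832 and 90944 at 8 h and a median difference of -0.25. Line Drosophila_58 had totals of 169245 and 190386 and a median difference of -0.36. The part of brightness in the order of the falls was not tested.

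**Figure D4:**
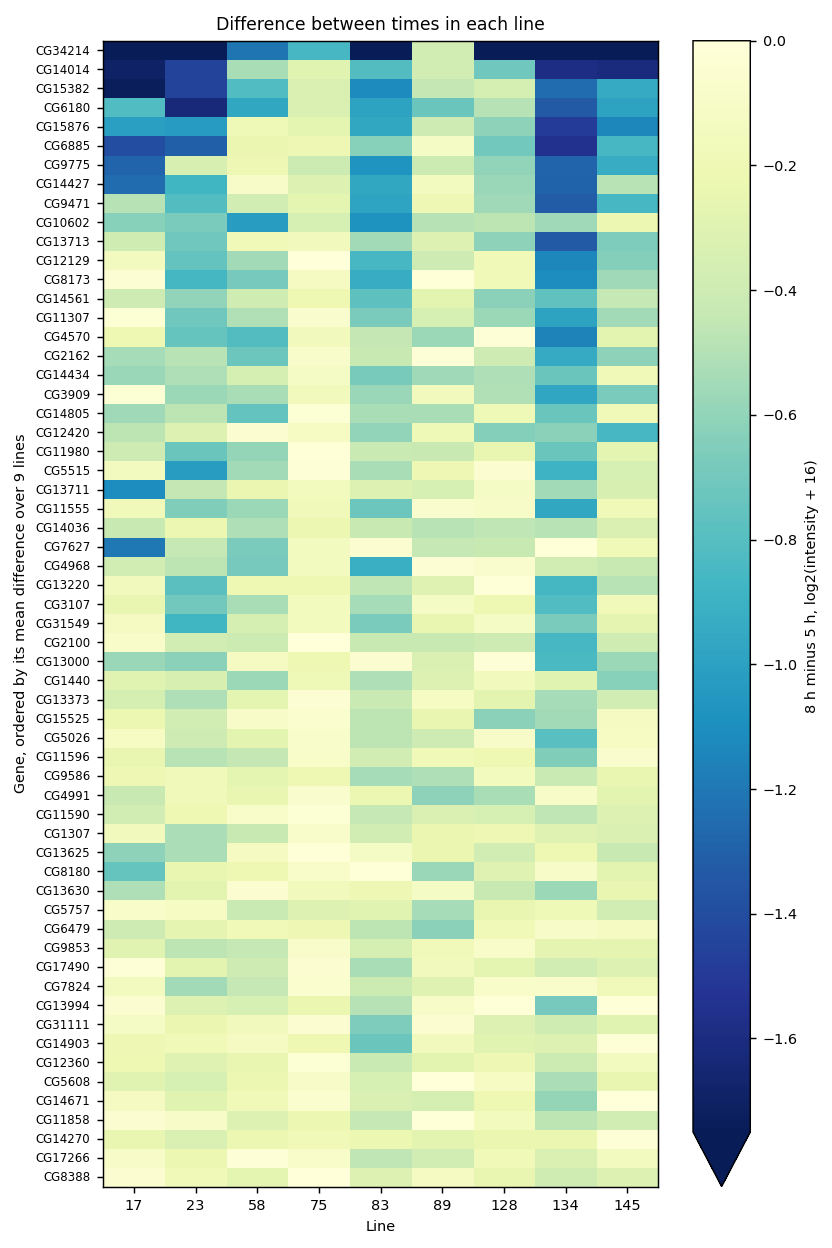
Difference between 8 h and 5 h on the log2(intensity + 16) scale for each of the 60 genes (rows, ordered by mean difference) in each of 9 lines (columns), where darker is a larger fall and the differences beyond the end of the colour bar share the darkest colour. Line Drosophila_134 is the darkest column for many genes and line Drosophila_75 is pale nearly throughout, with a median difference of -0.15.

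Among the genes called for lines over both times, the 8 with the widest span of line means on the log2 scale were CG34214 at 1.32, CG7627 at 1.26, CG4991 at 1.15, CG6180 at 1.13, CG9775 at 1.10, CG10602 at 1.08, CG15382 at 1.04 and CG8180 at 0.93. Being called was a condition of this list, so the test adds no support to it. Adjusted p in limma's F test ran from 7.5e-10 for CG34214 to 4.6e-05 for CG7627. The median span of the 60 was 0.54. CG14671 at 0.16, CG13220 at 0.18 and CG8388 at 0.26 had the narrowest spans, and none of these 3 was called for lines over both times (limma adjusted p = 0.73, 0.89 and 0.43).

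In CG7627, CG4991 and CG8180 line Drosophila_75 was the highest and line Drosophila_134 the lowest at 5 h, whereas in CG34214 line Drosophila_134 was the highest. CG7627 ran from 1.85 in line Drosophila_134 through 15.7 to 29.5 in line Drosophila_75 at 5 h, and from 1.28 in line Drosophila_17 through 5.33 to 24.8 in line Drosophila_75 at 8 h. CG4991 ran from 1.69 in line Drosophila_134 through 6.08 to 22.8 in line Drosophila_75 at 5 h, and from 0.503 in line Drosophila_134 through 2.38 to 21.0 in line Drosophila_75 at 8 h. CG8180 ran from 2.72 in line Drosophila_134 through 9.48 to 19.0 in line Drosophila_75 at 5 h, and from 0.351 in line Drosophila_23 through 4.57 to 17.1 in line Drosophila_75 at 8 h. In all 3 genes line Drosophila_75 was highest at both times and kept most of its signal, with line Drosophila_89 second at 5 h in CG4991 and CG8180. Without lines Drosophila_75 and Drosophila_89, CG4991 was no longer called over both times, with limma adjusted p = 0.15 against 1.5e-06 with all lines, while CG7627 and CG8180 were, with adjusted p of at most 0.021 and 0.033 under any alternative run. With array brightness as a covariate all 3 were called, in the same fit, which cannot remove brightness that differs between lines.

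**Figure D5:**
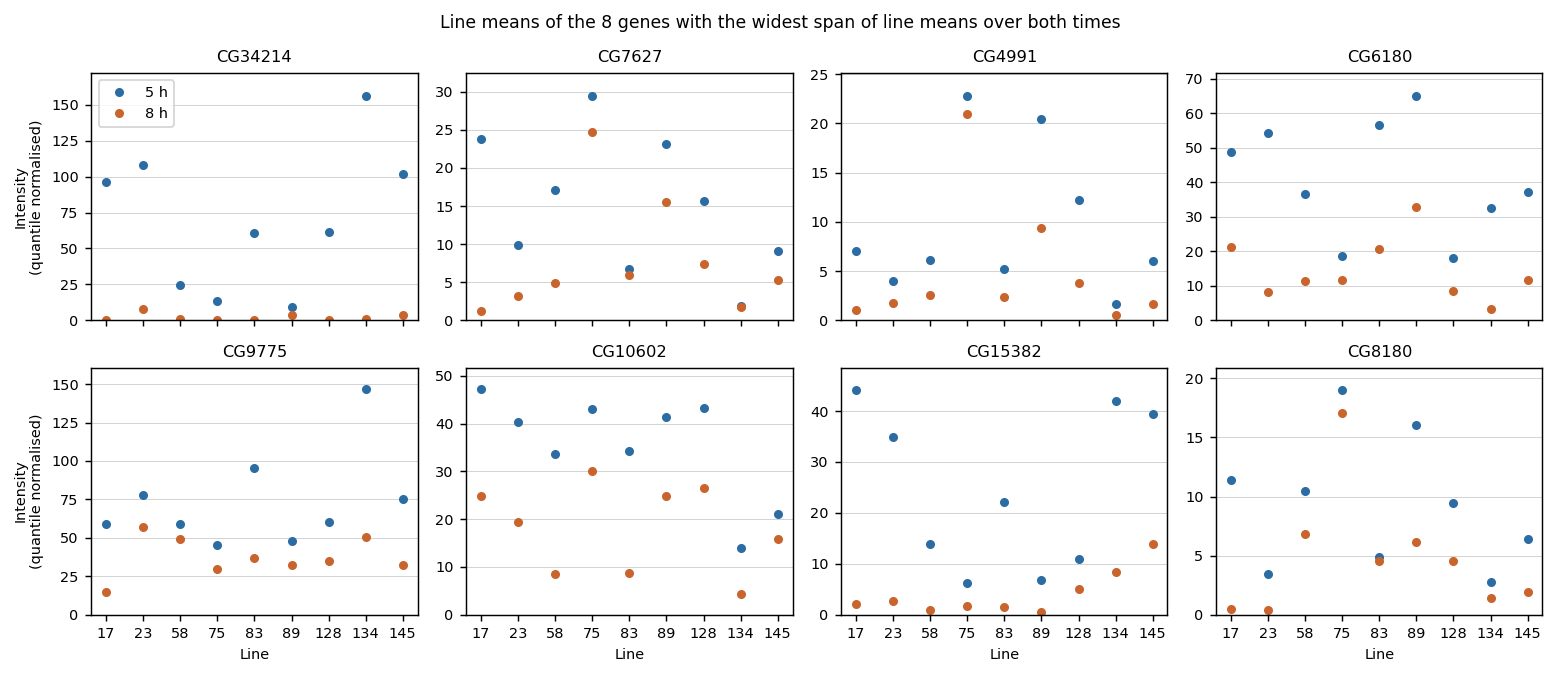
Line means of quantile normalised intensity at 5 h (blue) and 8 h (orange) for the 8 genes with the widest span of line means over both times, with the 9 lines on the x axis. CG7627, CG4991 and CG8180 are highest in line Drosophila_75 at both times, CG34214 and CG15382 are low in lines Drosophila_75 and Drosophila_89 at 5 h, and CG10602 is lowest in line Drosophila_134.

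CG10602 and CG6180 differed among lines at both times. CG10602 ran from 14 in line Drosophila_134 through 40.3 to 47.2 in line Drosophila_17 at 5 h, and from 4.40 in line Drosophila_134 through 19.5 to 30.1 in line Drosophila_75 at 8 h. At 5 h 7 of its 9 lines lay between 33.6 and 47.2 and lines Drosophila_134 and Drosophila_145 stood below them, with adjusted p = 0.0012 at 5 h and 2.6e-05 at 8 h in limma's F test. CG6180 had adjusted p = 0.00087 and 0.0013. CG9775 ran from 45.0 in line Drosophila_75 through 60.1 to 147 in line Drosophila_134 at 5 h and from 15 in line Drosophila_17 through 34.8 to 57.0 in line Drosophila_23 at 8 h. Its call over both times depended on the scaling, with limma adjusted p = 0.12 on the deposited scale and 0.13 with arrays centred on their medians, against 7.1e-06 after quantile normalisation.

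Members with a second name had spans among lines around the median of 0.54, from 0.28 for CG9853 to 0.62 for CG3909 among the 4 described next. CG9471 (BVR) ran from 13.8 in line Drosophila_58 through 26.5 to 38.1 in line Drosophila_134 at 5 h and from 5.64 through 11.4 to 15.5 at 8 h, and differed among lines at both times (limma adjusted p = 0.0050 and 0.021). CG3909 (Ski8) ran from 15.2 in line Drosophila_58 through 20.4 to 34.2 in line Drosophila_145 at 5 h and from 5.58 through 11.8 to 19.9 at 8 h, and was called for lines at 8 h but not at 5 h (limma adjusted p = 0.030 and 0.070). CG4968 (OTUB1) was called at 8 h but not at 5 h or over both times (limma adjusted p = 0.025, 0.90 and 0.11). Its line means were 27.6 to 41.4 at 5 h and 12.6 to 32.8 at 8 h. For CG9853 (Get4) the lines lay within 14.8 and 21.7 at 5 h and within 9.31 and 17.4 at 8 h, and it was called at neither time (limma adjusted p = 0.95 and 0.46).

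The array at 5 h whose title names no line took no part in the selection, apart from its share in the target of the normalisation. On this array 35 of the 60 genes were above every line mean at 8 h, against 16.5% of all probe sets and 18.9% of measured ones. The 8 h line means it is set against are those that chose the genes, so the excess is partly fixed by the choice and nothing is read from it. It was above all 8 h line means for 26 of the 51 genes outside the set near the limit, and for the 9 in that set, which were grouped for their low signal at 8 h. CG34214 was at 84.5 there, CG14014 at 38.3 and CG15876 at 20.5, each above the median of the 5 h lines. CG5757, at 4.77, was the only member below all 8 h line means, the lowest of which was 5.65. The count was also 35 when the array was mapped to a target made from the 35 others. This is 1 array with no replicate, and without quantile normalisation the count was 17 against 10.5% of all probe sets, so the size of the count depends on the scaling. The design text gives 2 arrays per line and time, and line Drosophila_17 lacks 1 at 5 h, but no label ties the array to that line.

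For 2 members the array holds a second probe set. That of CG17490 differed by -0.13 and was lower at 8 h in 7 of 9 lines, and that of CG5026 (listed as MTMR9, in human cells a myotubularin-related protein) differed by -0.14 and was lower in 8 of 9. Their means at 5 h were 5.10 and 4.49. The direction was the same, and neither would have met the requirement of a lower signal in every line.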

How the data were processed

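The deposited values are intensities on a linear scale for 36 arrays, 1 per RNA sample. How the authors turned scans into these values, scaling included, is not given in the sources used here. After leaving out 183 control probe sets, intensities were quantile normalised over the other 18769, and log2(intensity + 16) was taken. Arrays were averaged to 18 line-by-time means. Of the probe sets 13647 had 1 gene symbol, 402 several and 4720 none here, and 13544 were matched to RefSeq Release 6 plus ISO1 MT. The probe set with the highest mean stood for its gene.

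Models were fitted in R 4.3.3 with limma 3.58.1, a trended prior and Benjamini-Hochberg adjustment over all probe sets at 0.05. Lines were compared with a mean per line and time (17 residual degrees of freedom), and times with the line as a block (8 residual degrees of freedom). The fits were tested on simulated data. The members and gene lists were chosen with earlier results of these data known.

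Named genes follow fixed rules: the 12 largest falls, the 3 either side of the edge, the 8 widest and 3 narrowest spans among lines, the 3 brightest per time, adjacent members, the member below all 8 h lines, and members with a second probe set. The 9 genes near the limit, the HL genes, the genes with a second name in RefSeq and the other neighbours and excluded genes named were chosen after their values were seen.

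RNA samples are numbered 1 and 2 in the labels. Their deviations from group means correlated across 136 pairs of groups from -0.43 to 0.38 (median 0.03, 32 over 0.1), so the numbers do not pair the arrays.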

Additional observations from a re-analysis of the deposited data

Results flagged for a closer look

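Line means of the 12 largest falls and the 8 widest spans, and 3 medians over the 60 genes, gave 33 tests for a line standing apart from the other 8. There were 6 such values, in 4 lines. Chance flags about 1 in 20 groups, a rate that does not hold for genes picked for wide spans among lines, such as CG4991 and CG8180, or for genes picked on their falls. All values are on the log2(intensity + 16) scale, and the line means rest on 1 or 2 arrays each.

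At 8 h CG34214 was at 4.58 in line Drosophila_23, with the other lines at 4.02 to 4.29, and CG6885 was at 4.25 in line Drosophila_23, with the others at 4.05 to 4.15. CG14427 was at 4.39 in line Drosophila_145 at 8 h, with the others at 4.02 to 4.11. These 3 genes are near the limit at 8 h, so the differences are between dim signals.

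CG4991 at 8 h was at 5.21 in line Drosophila_75, with the others at 4.04 to 4.58, and CG8180 at 8 h was at 5.04 in line Drosophila_75, with the others at 4.03 to 4.51. The median level of the 60 genes at 5 h was 4.81 in line Drosophila_58, with the other lines at 4.98 to 5.07.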

How the results depend on the processing

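With lines Drosophila_75 and Drosophila_89 left out, 28 were called for lines over both times (44 with all lines), 13 at 5 h (21) and 18 at 8 h (32). At 5 h 41 were called on the deposited scale and 40 with arrays centred on their medians, where 23.5% and 22.5% of all probe sets were called, against 7.45% after quantile normalisation. Leaving out 1 array gave 35 to 49 over both times, 19 to 23 at 5 h and 26 to 37 at 8 h, and the RNA sample number as a replicate block gave 44, 21 and 34.

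The median difference of -0.39 became -0.58 on the deposited scale, -0.57 with median centring, -0.66 with a pseudocount of 4 and -0.14 with 64, and -0.42 to -0.33 without 1 line. Genes whose times did not overlap numbered 4, and 10 on the deposited scale, 9 with median centring, 14 without lines Drosophila_75 and Drosophila_89, and 4 to 9 without 1 line (9 without line Drosophila_75 and 7 without line Drosophila_17). Of all probe sets 0.112% did not overlap, and 0.240%, 0.256%, 0.485% and 0.122% to 0.298% under these settings. With no replicate block for line, 32 of the 60 were called lower at 8 h, and 46 to 58 without 1 line. The array with no line was above all 8 h line means for 17 genes on the deposited scale and 18 with median centring.

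Applied again, a choice made after seeing the data, the rule chose 28 of the 60 on the deposited scale, 30 with median centring, 48 with a common 90th percentile, and 50 and 57 with pseudocounts of 4 and 64. Of the 60, 55, 56, 48, 59 and 59 were lower in all 9 lines under these settings, and so were the 9 genes near the limit, except 1 under the 90th percentile scaling. Among the 8 genes with the widest spans, calls over both times were lost for CG4991 and CG9775. CG4991 had limma adjusted p = 0.148 without lines Drosophila_75 and Drosophila_89. CG9775 had limma adjusted p = 0.116 on the deposited scale and 0.134 with median centring. The calls of the other members were followed as counts only. The cause of these moves was not tested. The promoter motif count and the comparison of proteins were not run. The number of arrays limits precision, and dim genes at 8 h have no order.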
